A study of Mus musculus with 94 samples.

Results

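Inguinal white adipose tissue (iWAT), the main subcutaneous fat depot of the mouse, was compared between mice returned to a low-fat diet for 2 weeks and mice that were still obese. The 11 libraries were taken by their tissue and treatment labels alone, out of 94 libraries in the series. In the 2-week regression group, 6 male C57BL/6JBomTac mice got the high-fat diet from 10 weeks of age, switched to a low-fat diet after 18 weeks of it, and were sampled 2 weeks later at an age of 30 weeks. In the obese group, 5 male mice of the same strain were sampled at the end of the 18 weeks of high-fat diet, at 28 weeks of age. Lean mice of the same sex and strain, on the low-fat diet throughout, were sampled at both times (6 at 2 weeks and 6 at the obesity time) and measure what 2 weeks of age and another sampling day go with. No group carried an engineered allele, and only males were studied. Mice were housed as cage mates, and the labels do not say which of them shared a cage. The replicates are labelled biological replicates and each has its own mouse number, so the p-values treat each mouse as independent.

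White fat cells store fatty acids as triglyceride and release leptin in proportion to the fat they hold. Genes of cholesterol and unsaturated fatty acid synthesis are switched on by the sterol regulatory element binding proteins (SREBPs), which answer to sterol levels and insulin. Glucocorticoids, endoplasmic reticulum stress and inflammatory cytokines each have their own well-known target genes in fat, and the lists used below follow these roles. The readout was poly(A) RNA of whole tissue, so fewer cells of a type and less RNA per cell cannot be told apart. The unit CPM scales the counts of each library to the same sum, and levels are compared between samples of 1 gene, not between genes.

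Library totals were 7.76 to 34.3 M counts in 2-week regression mice and 9.03 to 12.96 M in obese mice, and the mean totals of 13.8 and 10.5 M did not pass an exact two-sided permutation test (p = 0.814; the smallest p possible was 0.00216). Each of the 11 libraries held the fat cell genes: Adipoq, which encodes the hormone adiponectin, had 1917, 2715 and 3348 CPM (lowest, median and highest) in 2-week regression mice, against 2968, 3444, 2782, 2888 and 2615 CPM in obese mice. Some libraries stood apart from the rest of their group. Each library was placed over the called genes on a scale with the obese mean at 0% and the 2-week regression mean at 100%. The library placed was left out of its own group mean, so the scale differs between libraries. Obese replicate 3 lay at 67.5%, whereas obese replicates 2 and 4 lay at -35.5% and -34.9% and regression replicate 5 at 125%. These positions use the same libraries that chose the genes and are a description only. Summed macrophage genes reached 8939 CPM in regression replicate 5, against 3636 to 4639 CPM in the other 2-week regression mice and 1988 to 6811 CPM in obese mice. Skeletal muscle markers summed to 463.9, 75.6, 52.4, 49.7, 21.6 and 2832 CPM in 2-week regression mice and to 2592, 58.5, 3801, 110.2 and 2854 CPM in obese mice, so muscle RNA was high in 1 of 6 and in 3 of 5 dissections. The B cell markers summed to 237 CPM in regression replicate 4 and to at most 35.4 CPM in any other of the 11 libraries. The results below that rest on these libraries are given with and without them.

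The 2 weeks of low-fat diet went with 792 changed genes among 13899 tested, 5.70% of them, at an adjusted p under 0.05. After 2 weeks 284 genes were higher (2.04%) and 508 were lower (3.65%), and the median log2 fold change over all genes was 0.02. The falls were the larger changes: 150 genes fell over 2-fold and 32 over 4-fold, while 49 rose over 2-fold and 5 over 4-fold. In 525 of all genes tested (3.78%) the CPM of the 11 mice separated the groups without overlap, 221 of them higher (1.59%) and 304 lower (2.19%). The count leaned on single mice. It was 375 without obese replicate 4, 382 without obese replicate 2 and 505 without regression replicate 1, and it was 1209 without obese replicate 3. The mice fall into 2 series of mouse numbers, and 3.37% of the genes tested were called in the series of replicates 4 to 6 alone (141 higher, 327 lower) and 0.918% in that of replicates 1 to 3 alone (41 higher, 86 lower). With neighbouring mouse numbers treated as a random block, a stand-in for shared cages, 332 genes were called, of which 324 were among the 792.

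Leptin RNA was lower after 2 weeks. Lep (chr6:29060220-29073877, plus strand), the hormone gene whose RNA follows fat cell size, had 689, 1075 and 1649 CPM in 2-week regression mice, against 3465, 5847, 963, 6042 and 1512 CPM in obese mice. Obese replicates 3 and 5 lay within the regression range and obese replicates 2 and 4 were the highest. The log2 fold change was -1.65 ± 0.38 (adjusted p = 0.00679, edgeR), and it was -1.89 without obese replicate 3 (adjusted p = 0.000943). The level in 2-week regression mice, 1136 ± 337 CPM (SD, n = 6), stood beside 1046 ± 324 CPM in lean mice of the same time. Under the random block for neighbouring mouse numbers the call on Lep was lost (adjusted p = 0.112). Of the 5 genes known to rise and fall with fat mass, 2 fell and none rose, against 3.65% of all genes falling. Their median log2 fold change was -1.25. The other one called was Nkd1, an inhibitor of Wnt signalling, at 18.7 ± 6.53 CPM in 2-week regression mice and 44.5 ± 22.1 CPM in obese mice (log2 fold change -1.25 ± 0.35, adjusted p = 0.025), and without regression replicate 5 it too missed the threshold (adjusted p = 0.0646). Mest, Sfrp5 and Bmp3, which mark expanding fat in mice, did not pass, with log2 fold changes of -1.50 ± 0.61, -0.50 ± 0.42 and -0.42 ± 0.26.

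The 10 largest falls came from genes of unlike roles. Tph2 (chr10:115078641-115185022, minus strand), the neuronal form of the enzyme that starts serotonin synthesis, had 0.626, 1.21 and 4.96 CPM in 2-week regression mice, against 24.5, 106, 3.10, 104 and 5.92 CPM in obese mice, a log2 fold change of -4.78 ± 0.69 (adjusted p = 2.82e-05). Slc5a7 (chr17:54273590-54299034, minus strand), the choline transporter of nerve endings, had 2.12, 2.75 and 4.61 CPM after 2 weeks, against 39.0, 86.3, 3.54, 97.0 and 15.5 CPM in obese mice (-3.98 ± 0.64, adjusted p = 0.000133). In both genes obese replicates 2 and 4 were far above the other mice, and obese replicate 3 alone overlapped the regression group. Lean mice had as little as the regression mice: Tph2 stood at 1.28 ± 0.600 CPM and Slc5a7 at 1.87 ± 1.24 CPM in lean mice at 2 weeks.

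Oxtr (chr6:112473683-112489943, minus strand), the oxytocin receptor, had 10.3, 20.5 and 30.4 CPM in 2-week regression mice, against 95.8, 250.1, 20.9, 344 and 40.8 CPM in obese mice (-2.92 ± 0.50, adjusted p = 0.000291). Ncan, a proteoglycan of brain matrix, had 1.69, 2.99 and 5.84 CPM after 2 weeks, against 32.7, 73.5, 3.81, 65.6 and 37.8 CPM in obese mice (-3.68 ± 0.54, adjusted p = 3.11e-05). These 2 genes were also abundant in lean fat, unlike Tph2: lean mice at 2 weeks held 90.0 ± 54.1 CPM of Oxtr and 35.9 ± 12.9 CPM of Ncan, so the 2-week regression mice stood below both the obese and the lean mice in the mean. Pkp1, a plaque protein of cell junctions in skin, averaged 0.620 ± 0.246 CPM in 2-week regression mice and 10.5 ± 8.42 CPM in obese mice (-4.05 ± 0.64, adjusted p = 9.57e-05). Krt79, a keratin, had 0.943, 3.41 and 4.45 CPM after 2 weeks, against 10.6, 17.9, 5.75, 19.3 and 12.4 CPM in obese mice, with no overlap (-2.07 ± 0.34, adjusted p = 0.000166). The 12 nerve and Schwann cell markers had a median log2 fold change of 0.39 with 1 lower and none higher, beside 3.65% of all genes falling and 2.04% rising. Their sum was 671 to 937 CPM after 2 weeks and 645 to 777 CPM in obese mice. Of the skin and hair markers none of the 5 measured was called, and Krt5 and Krt14 had 0 counts in every one of the 11 libraries. Beside those shares, so few calls in short lists say little of nerve or skin markers as wholes.

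The other large falls were Kcnj14, a potassium channel (-2.68 ± 0.39), Lppr4, a membrane protein of the lipid phosphatase family (-2.65 ± 0.46), Sez6l, a neuronal membrane protein (-2.08 ± 0.59), and Scd2, described with the lipid genes below. All 10 of the largest falls were still called without obese replicate 3. Without regression replicate 5, 9 of them were called, Sez6l being the exception (adjusted p = 0.0555), and under the random block for neighbouring mouse numbers 9 were called, Pkp1 being the exception (adjusted p = 0.0573). Obese replicate 3 was the obese mouse nearest the regression mice over the called genes. Leaving it out therefore does not show how far these falls rest on obese replicates 2 and 4. Over all genes the count of calls was 382 without obese replicate 2 and 375 without obese replicate 4.

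The 4 falls described next were picked after their values were seen. Hfe, the iron regulator of the haemochromatosis locus, had 38.0, 47.8 and 59.5 CPM in 2-week regression mice, against 113, 164, 65.1, 134 and 88.0 CPM in obese mice. The groups did not overlap (-1.21 ± 0.16, adjusted p = 2.82e-05). Lamb3, a laminin chain, had 1.30, 1.69 and 1.94 CPM after 2 weeks, against 6.50, 11.7, 3.19, 11.9 and 3.85 CPM in obese mice, again without overlap (-2.13 ± 0.29, adjusted p = 2.82e-05). Trp53inp2 (chr2:155381059-155389850, plus strand), an autophagy regulator, had 261, 528 and 875 CPM after 2 weeks, against 1750.5, 2739.6, 743, 2959 and 1040.2 CPM in obese mice (-1.78 ± 0.28, adjusted p = 8.95e-05). Tuba1a (chr15:98949837-98953703, minus strand), an alpha tubulin, had 193, 221 and 248 CPM after 2 weeks, against 641, 1149, 245, 1238 and 836 CPM in obese mice (-1.91 ± 0.36, adjusted p = 0.000711). In Trp53inp2 and Tuba1a obese replicate 3 lay inside the regression range and the other obese mice were all higher. The narrow spread of the 6 regression mice in Tuba1a, and the wide one of the 5 obese mice, recurs in the plot of these genes. Tuba1a has near-identical tubulin copies, so its reads may be shared with them.

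**Figure D1:**
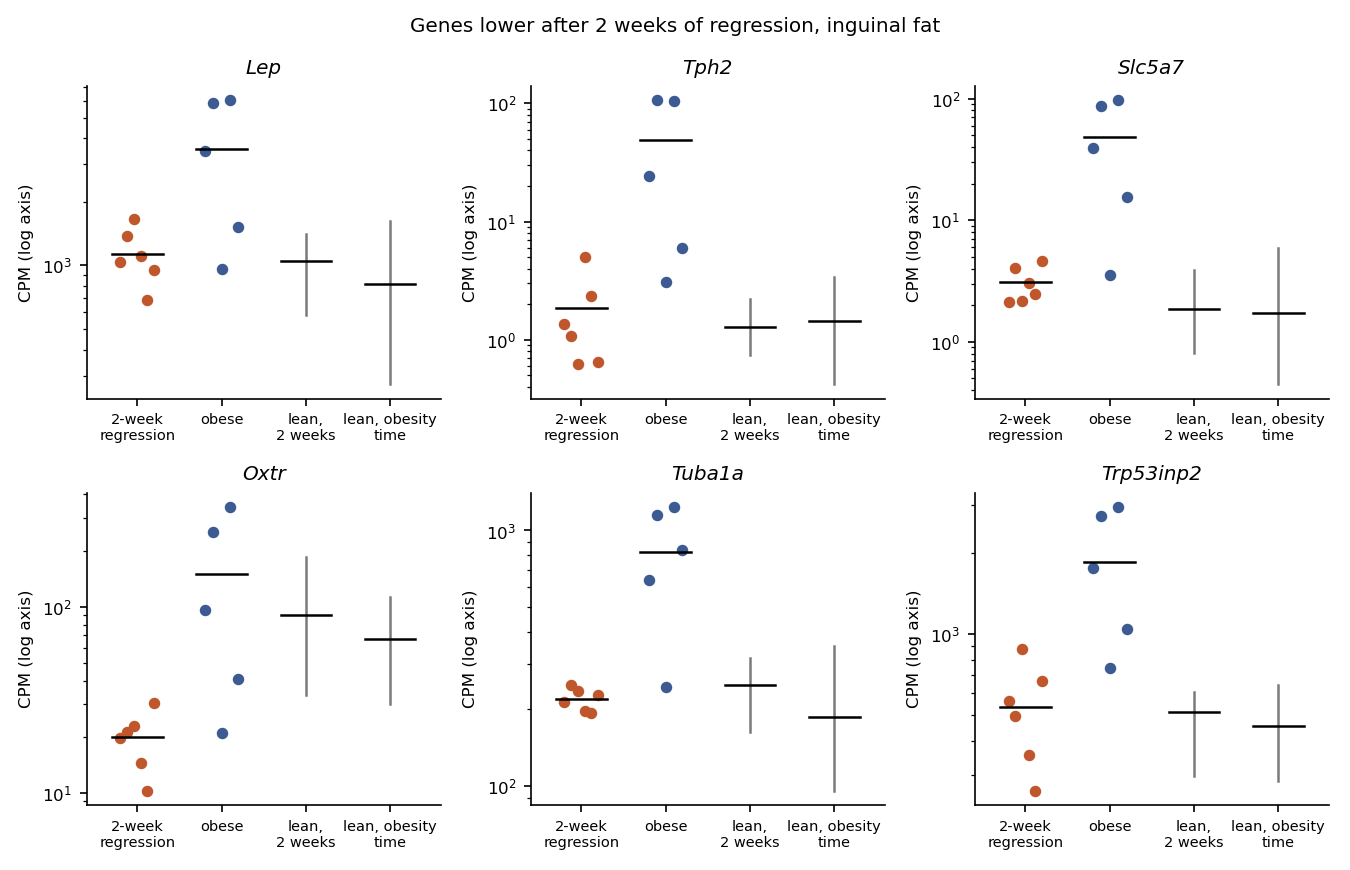
CPM on a log axis of 6 genes that were lower after 2 weeks, with 1 point per mouse for 2-week regression (n = 6) and obese mice (n = 5) and a grey line from the lowest to the highest mouse for lean mice of each time (2 weeks, then the obesity time, n = 6 each); black bars are means. Obese mice spread widely and obese replicate 3 lies within or next to the range of the regression mice in each panel. In the Lep panel obese replicate 5 lies within that range too.

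Cholesterol synthesis had the most members called of the 56 gene lists examined. Of 24 measured members, 11 fell and none rose, against 3.65% of all genes falling, and the median log2 fold change of the list was -0.91. Hmgcs1 (chr13:119690379-119708260, plus strand), which makes the HMG-CoA from which sterols are built, had 75.6, 153 and 216 CPM in 2-week regression mice, against 499.8, 711, 352, 646 and 372 CPM in obese mice. Every obese mouse was above every regression mouse (-1.73 ± 0.28, adjusted p = 0.000146). Hsd17b7, a sterol ketone reductase, had 7.57, 9.24 and 12.9 CPM after 2 weeks, against 24.3, 24.1, 9.21, 28.5 and 25.9 CPM in obese mice (-1.22 ± 0.27, adjusted p = 0.00484). In Hsd17b7 obese replicate 3 was at the level of the regression mice, and the other obese mice were all higher.

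Further down the pathway, Lss, which closes the sterol ring, fell by 1.21 on the log2 scale and Nsdhl, a sterol demethylating enzyme, stood at -1.202. Dhcr7 and Sc5d, which act in the last steps, had log2 fold changes of -0.98 ± 0.26 and -0.91 ± 0.29. Idi1 and Pmvk, early enzymes of the mevalonate branch, stood at -0.97 ± 0.29 and -0.93 ± 0.29. The sterol carrier Stard4 stood at -0.85 ± 0.25, with 6.14, 6.62 and 7.09 CPM after 2 weeks, against 11.4, 11.7, 7.26, 15.5 and 14.1 CPM in obese mice, without overlap. Insig1, which holds SREBPs in the endoplasmic reticulum, had 132, 189 and 378 CPM after 2 weeks, against 473.4, 587, 249.7, 512 and 530.4 CPM in obese mice (-1.19 ± 0.36, adjusted p = 0.0398). Not all members moved with them. Fdft1, squalene synthase, had 18.9, 38.5 and 64.9 CPM after 2 weeks, against 27.6, 30.3, 26.1, 25.9 and 42.7 CPM in obese mice (log2 fold change 0.41 ± 0.24, adjusted p = 0.354), and Sqle, squalene epoxidase, missed the threshold at -0.97 ± 0.32 (adjusted p = 0.0588).

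The cholesterol count was 15 without obese replicate 3, 6 without regression replicate 5 and 14 without both. It was 5 without obese replicate 2 or without obese replicate 4, 3 under the random block for neighbouring mouse numbers, 9 in replicates 4 to 6 alone and 0 in replicates 1 to 3 alone. Less the lean change of the same 2 weeks, 3 members fell (Hmgcs1, Hsd17b7 and Stard4), against 2.12% of all genes falling in that comparison. The level in lean mice was not the same for each member. At 2 weeks Hmgcs1 stood at 156 ± 48.8 CPM in regression mice, against 199 ± 48.9 CPM in lean mice. Insig1 stood at 206 ± 89.7 CPM in regression mice, against 1094 ± 462.8 CPM in lean mice, and Lss at 18.8 ± 4.25 CPM in regression mice, against 101 ± 39.2 CPM in lean mice. These are levels set side by side and not a test.

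RefSeq promoter windows of 300 bases around the gene start (build GRCm38.p6, the assembly also called mm10) were searched on both strands for the core of the sterol regulatory element, TCACNCCAC, and for the E-box CACGTG, both of which SREBPs can bind. No match of one overlaps a match of the other in the windows printed. Of the 10560 tested genes with a window, 1.43% held the sterol element core and 11.4% the E-box, against 1.9% and 12.2% of the 368 lower genes. Of the 225 higher genes 0 held the sterol element core and 13.8% held the E-box. Among the 9 fallen cholesterol genes with a window, 1 held the sterol element core and 4 held the E-box (Insig1, Hsd17b7, Dhcr7 and Sc5d). The 3 examples are shown 5′ to 3′ in the direction of transcription with the match in capitals, because Hmgcs1 had the largest fall of the list and Insig1 and Hsd17b7 hold the E-box at different distances from the start. Hmgcs1 lies on the plus strand at chr13:119690101-119690400, Insig1 on the plus strand at chr5:28071162-28071461 and Hsd17b7 on the minus strand at chr1:169969156-169969455.
Hmgcs1: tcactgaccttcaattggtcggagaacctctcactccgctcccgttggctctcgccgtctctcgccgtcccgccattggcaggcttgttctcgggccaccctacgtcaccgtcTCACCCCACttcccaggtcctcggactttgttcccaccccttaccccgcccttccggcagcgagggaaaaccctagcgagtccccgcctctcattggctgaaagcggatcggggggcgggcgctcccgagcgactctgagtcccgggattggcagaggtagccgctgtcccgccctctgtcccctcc
Insig1: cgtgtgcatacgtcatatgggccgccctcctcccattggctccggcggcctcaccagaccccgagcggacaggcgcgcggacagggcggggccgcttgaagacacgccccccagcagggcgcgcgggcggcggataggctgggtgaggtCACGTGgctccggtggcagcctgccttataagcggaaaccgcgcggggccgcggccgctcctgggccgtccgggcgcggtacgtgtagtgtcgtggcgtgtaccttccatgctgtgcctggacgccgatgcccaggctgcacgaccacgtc
Hsd17b7: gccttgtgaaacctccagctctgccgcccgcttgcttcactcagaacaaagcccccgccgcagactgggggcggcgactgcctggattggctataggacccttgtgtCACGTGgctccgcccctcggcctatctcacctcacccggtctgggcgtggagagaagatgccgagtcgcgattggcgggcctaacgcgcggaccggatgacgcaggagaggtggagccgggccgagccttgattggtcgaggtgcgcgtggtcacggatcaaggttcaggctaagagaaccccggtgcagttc
The match starts at base 114 of the Hmgcs1 window, base 150 of the Insig1 window and base 108 of the Hsd17b7 window, counted from 1 at the 5′ end. A match is a run of letters and says nothing of whether a factor is bound there.

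Triglyceride synthesis, which joins fatty acids to a glycerol backbone, had 3 of 12 measured members lower and none higher, against 3.65% of all genes falling, and a list median of -0.20. Mogat2, a monoacylglycerol acyltransferase, had 0.590, 0.645 and 1.88 CPM in 2-week regression mice, against 5.91, 12.9, 1.68, 18.9 and 4.24 CPM in obese mice (-3.20 ± 0.54, adjusted p = 0.000282). Dgat2, which adds the last fatty acid, had 374, 959 and 1919 CPM after 2 weeks, against 2634, 3937, 1342, 4420.3 and 2918 CPM in obese mice (-1.60 ± 0.31, adjusted p = 0.00114). Agpat2, which works earlier in the chain and is needed for fat tissue to form, had 109, 211 and 397.4 CPM after 2 weeks, against 498, 618, 333, 602 and 731 CPM in obese mice (-1.29 ± 0.33, adjusted p = 0.0126). The groups overlapped only through the highest regression mouse and obese replicate 3. The 3 genes were also called without regression replicate 5, and 2 of them under the random block, where Mogat2 missed the threshold. The other 9 members were not called, as the plot of both lists shows.

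**Figure D2:**
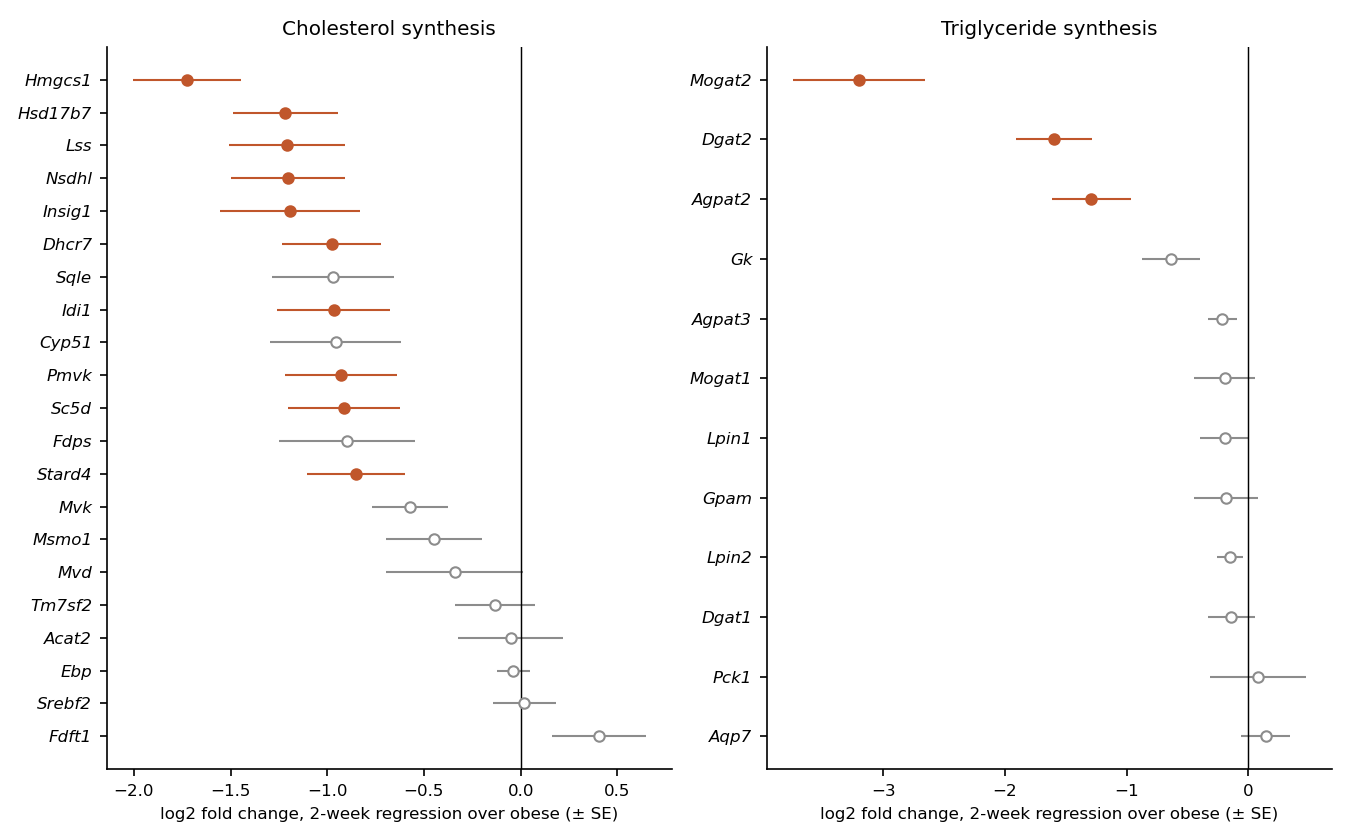
Log2 fold change of 2-week regression over obese mice for 21 of the 24 measured members of the cholesterol synthesis list (left) and the 12 of the triglyceride synthesis list (right), each with its standard error; filled points passed an adjusted p under 0.05 over all genes. In the left panel 10 filled points lie below 0 and Fdft1 lies at 0.41, and in the right panel the 3 filled points lie apart from the other 9 genes.

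The fatty acid synthesis list gave few calls. Of 20 measured members of de novo lipogenesis 2 fell and none rose, against 3.65% of all genes falling. Scd2, a stearoyl-CoA desaturase, had 159, 183 and 313 CPM in 2-week regression mice, against 754, 933, 211, 1092 and 1432 CPM in obese mice (-2.03 ± 0.37, adjusted p = 0.00057). Pnpla3, a lipid droplet protein induced by feeding, had 59.0, 147 and 349.9 CPM after 2 weeks, against 595, 739, 521, 538 and 807 CPM in obese mice, without overlap (-1.97 ± 0.34, adjusted p = 0.000291). Fasn, the fatty acid synthase, had 658, 2054 and 6558 CPM after 2 weeks, against 2026, 2473, 977, 1650.4 and 8224 CPM in obese mice, with wide overlap (-0.23 ± 0.45, adjusted p = 0.824). Elovl6, which lengthens the products of Fasn, stood at 60.6 ± 42.2 CPM after 2 weeks and 72.9 ± 72.7 CPM in obese mice (adjusted p = 0.829). Both were far more abundant in lean mice of the same time, which had 24476 ± 10048 CPM of Fasn and 2881 ± 1738 CPM of Elovl6. The sign of both log2 fold changes rested on obese replicate 5: without it Fasn stood at 0.55 and Elovl6 at 0.58.

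Uptake and release of fat changed in few members, beside 2.04% of all genes rising and 3.65% falling. Lpl, the lipase that frees fatty acids from circulating lipoproteins, averaged 5590.2 ± 1611 CPM in 2-week regression mice and 9351 ± 2415 CPM in obese mice (-0.74 ± 0.20, adjusted p = 0.0216). The lipoprotein receptor Vldlr had 83.7, 87.1 and 105 CPM after 2 weeks, against 144, 199.7, 136, 184 and 164 CPM in obese mice, without overlap (-0.86 ± 0.22, adjusted p = 0.0123). Of 23 measured genes of lipolysis and lipid droplets 1 rose and 2 fell. The riser was Adrb1, an adrenaline receptor that starts lipolysis, with 14.4, 45.2 and 53.9 CPM after 2 weeks, against 13.7, 14.5, 11.2, 18.8 and 28.1 CPM in obese mice (1.27 ± 0.36, adjusted p = 0.0273). Regression replicate 5 lay with the obese mice and the other 5 regression mice were all higher. The members that fell were Npr3, the clearance receptor that removes natriuretic peptides (-1.09 ± 0.31, adjusted p = 0.0281), and the monoglyceride lipase Mgll (-0.68 ± 0.18, adjusted p = 0.0176). Under the random block none of these 5 genes, Lpl, Vldlr, Adrb1, Npr3 and Mgll, was called, and without regression replicate 5 Lpl, Npr3 and Mgll were not. Less the lean change none of the 14 measured genes of fatty acid uptake was called. Of the 23 genes of lipolysis and lipid droplets 2 rose and none fell in that comparison, against 1.89% and 2.12% of all genes. The droplet coat gene Plin1 did not pass, at 1883 ± 496 CPM after 2 weeks and 2267 ± 438.4 CPM in obese mice (adjusted p = 0.392).

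The machinery that burns fuel showed few changes, beside 2.04% of all genes rising and 3.65% falling. None of 26 respiratory chain genes, 23 citrate cycle genes and 20 genes of branched-chain amino acid breakdown was called, and their median log2 fold changes were 0.08, -0.10 and -0.09. Of 21 genes of fatty acid oxidation 1 fell. Of 16 measured thermogenic genes 1 fell, Otop1, a proton channel abundant in brown fat (15.2 ± 7.27 CPM after 2 weeks and 46.1 ± 26.4 CPM in obese mice, -1.61 ± 0.43, adjusted p = 0.0185). Ucp1, the uncoupling protein of brown fat, was at most 2.14 CPM in any 2-week regression mouse and at most 4.34 CPM in any obese mouse. Of 22 glycolysis and pentose phosphate genes 3 fell: Pfkfb3, which sets glycolytic flux (-0.74 ± 0.23, adjusted p = 0.0444), the glycolytic enzyme Tpi1 (-0.67 ± 0.21, adjusted p = 0.0429) and Pgd, which yields NADPH for lipid synthesis (-0.88 ± 0.28, adjusted p = 0.0489). None of these 3 was called without regression replicate 5, and neither they nor Otop1 were called under the random block.

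Some genes that answer to glucocorticoids were higher. Of 18 measured members 5 rose, 13 were not called and none fell, against 2.04% of all genes rising, and the list median was 0.42. Hsd11b1 (chr1:193221634-193264075, minus strand), which regenerates active glucocorticoid inside the cell, had 114, 169.5 and 366 CPM in 2-week regression mice, against 60.0, 71.7, 72.6, 60.5 and 121 CPM in obese mice (1.44 ± 0.28, adjusted p = 0.00137). Only obese replicate 5 overlapped the regression mice. Lean mice had more still, 390.3 ± 131 CPM at 2 weeks.

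The metallothioneins Mt1 and Mt2, metal-binding proteins, rose as well. Mt2 (chr8:94172664-94173568, plus strand) had 36.2, 15.02, 13.8, 82.6, 137 and 10.4 CPM in regression replicates 1 to 6, against 9.75, 5.13, 31.2, 6.82 and 4.84 CPM in obese replicates 1 to 5 (2.09 ± 0.50, adjusted p = 0.00885). Regression replicates 4 and 5 carried most of the RNA. Mt1 averaged 51.1 ± 25.9 CPM after 2 weeks and 20.4 ± 9.02 CPM in obese mice (1.32 ± 0.26, adjusted p = 0.00148). Fkbp5, which tempers the glucocorticoid receptor, had 75.0, 104 and 336 CPM after 2 weeks, against 85.2, 81.4, 68.1, 48.8 and 50.7 CPM in obese mice (1.09 ± 0.28, adjusted p = 0.0159). Per1, a clock gene that glucocorticoids induce, had 87.9, 95.3 and 131 CPM after 2 weeks, against 27.1, 84.7, 62.7, 51.4 and 46.3 CPM in obese mice, without overlap (0.90 ± 0.28, adjusted p = 0.0474). The count was 8 without obese replicate 3 and 2 without regression replicate 5, which left Hsd11b1 and Mt1, and it was 2 under the random block. Over all genes 492 of 13983, 215 of 13883 and 103 of 13899 rose in these fits, in that order. Less the lean change the glucocorticoid count was 3, against 1.89% of all genes, with Hsd11b1, Mt1 and Per1. In lean mice Fkbp5 stood at 76.4 ± 12.6 CPM at 2 weeks and 42.8 ± 15.96 CPM at the obesity time, and its change less the lean change was 0.26 ± 0.39 (adjusted p = 0.734).

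Among 17 clock genes 2 rose, against 2.04% of all genes, Per1 and Bhlhe40, a repressor of the clock (1.31 ± 0.38, adjusted p = 0.0322), and neither was called under the random block. The core activator Clock fell, with 48.5, 59.2 and 72.7 CPM in 2-week regression mice, against 99.0, 117, 82.5, 92.8 and 78.1 CPM in obese mice, without overlap (-0.63 ± 0.12, adjusted p = 0.00114), and it was also called under that block. The labels give no hour of sampling, and its part in the clock and glucocorticoid genes was not tested.

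Genes of the unfolded protein response enlarge the folding capacity of the endoplasmic reticulum. Of 18 measured members 5 were higher and none lower, against 2.04% of all genes rising, and the list median was 0.30. Xbp1, the transcription factor of this response, had 305, 405.97 and 471.6 CPM in 2-week regression mice, against 234, 211, 292, 184 and 279 CPM in obese mice, without overlap (0.76 ± 0.16, adjusted p = 0.00277). Pdia4, a disulfide isomerase, averaged 163 ± 40.3 CPM after 2 weeks and 109 ± 27.4 CPM in obese mice (0.58 ± 0.12, adjusted p = 0.00244). Creld2, a folding factor, averaged 20.8 ± 6.16 CPM after 2 weeks and 11.9 ± 2.65 CPM in obese mice (0.81 ± 0.19, adjusted p = 0.00758). Hyou1, a chaperone, and Manf, a secreted stress protein, stood at 0.45 ± 0.12 and 0.57 ± 0.17. The count was 3 without regression replicate 5, when Hyou1 and Manf were no longer called, 7 without obese replicate 3 and 3 under the random block. Over all genes 215 of 13883, 492 of 13983 and 103 of 13899 rose in these fits, in that order. Less the lean change, 4 members were higher, against 1.89% of all genes.

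Of 18 antioxidant genes 3 rose and none fell, against 2.04% of all genes rising. Gpx3, the secreted glutathione peroxidase, had 849, 1304 and 1455 CPM in 2-week regression mice, against 504, 354, 985, 283 and 675 CPM in obese mice (1.16 ± 0.23, adjusted p = 0.00156). Only obese replicate 3 reached into the regression range. Glutathione reductase, Gsr, stood at 0.45 ± 0.12 and thioredoxin reductase, Txnrd1, at 0.31 ± 0.09. Under the random block Gpx3 alone of the 3 was called. Cfd, adipsin, a complement protease that fat cells secrete and that is low in obese rodents, averaged 4880.0 ± 2477 CPM after 2 weeks and 2346 ± 1747 CPM in obese mice (1.06 ± 0.33, adjusted p = 0.0447). Its level in lean mice at 2 weeks was 4039 ± 1053 CPM. Cfd was not called under the random block or less the lean change.

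**Figure D3:**
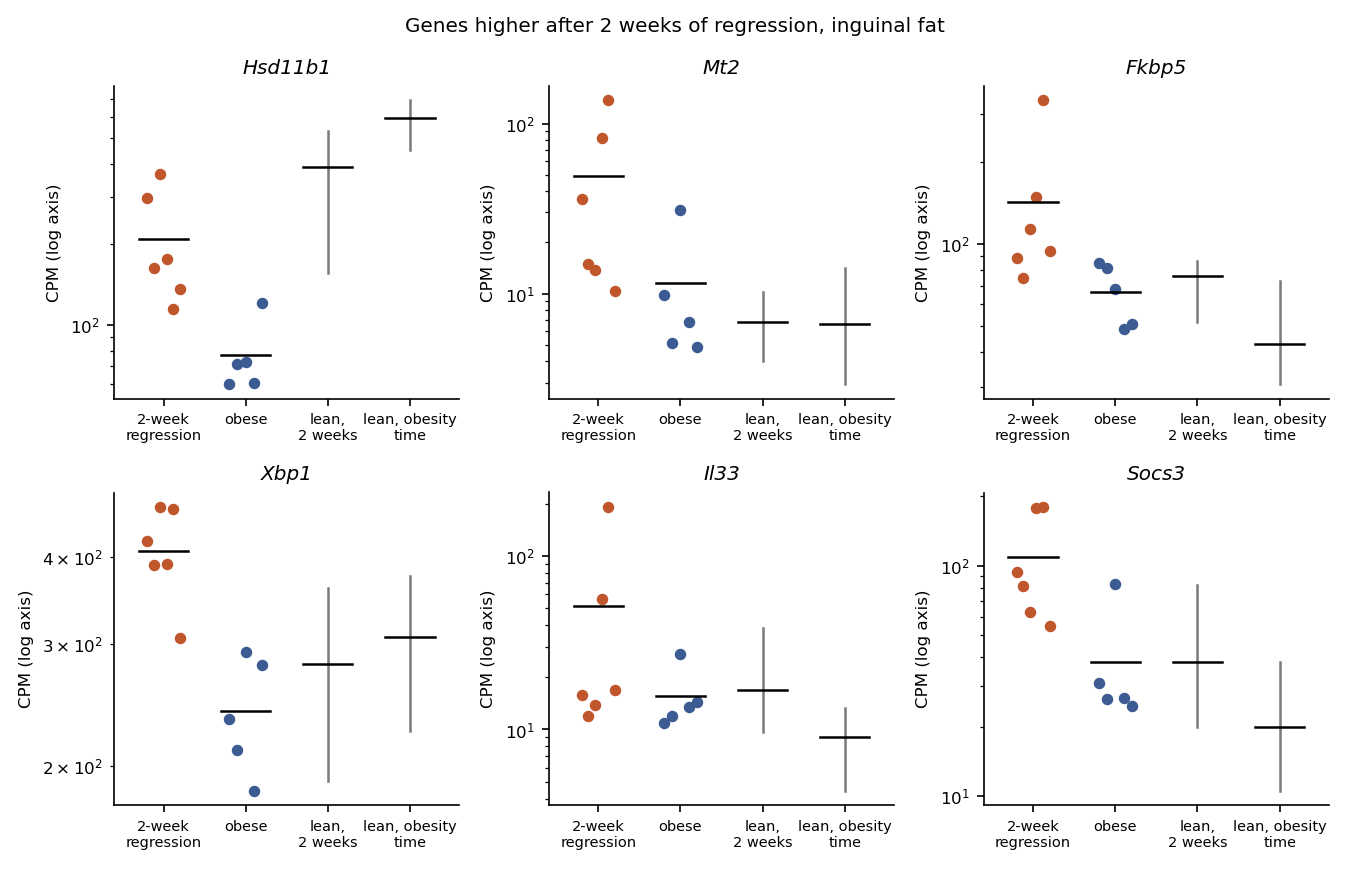
CPM on a log axis of 6 genes that were higher after 2 weeks, drawn as for the lower genes: points are single 2-week regression (n = 6) and obese mice (n = 5), grey lines run from the lowest to the highest lean mouse (n = 6 each) and black bars are means. Xbp1 separates the groups, while the means of Mt2 and Il33 rest on 1 or 2 of the regression mice.

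The largest rises leaned on regression replicate 5. Sphk1 (chr11:116530925-116536674, plus strand), which makes the signalling lipid sphingosine-1-phosphate, had 3.44, 2.77, 3.13, 13.2, 32.1 and 2.04 CPM in regression replicates 1 to 6, against 1.999, 0.926, 2.21, 2.08 and 1.09 CPM in obese replicates 1 to 5 (2.49 ± 0.59, adjusted p = 0.00756). Il33, an alarm cytokine of stromal cells, had 15.7, 12.02, 13.9, 56.5, 192 and 16.8 CPM in the regression mice, against 10.9, 11.96, 27.2, 13.5 and 14.4 CPM in the obese mice (1.71 ± 0.51, adjusted p = 0.0358). Il4ra, the interleukin 4 receptor, had 154, 106, 147, 368, 1005 and 135 CPM in the regression mice, against 130.2, 72.5, 157, 80.1 and 69.9 CPM in the obese mice (1.64 ± 0.41, adjusted p = 0.0113). In each of the 3 genes regression replicate 5 was the highest of all 11 mice and replicate 4 the next, and the other regression mice were close to the obese range.

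Without regression replicate 5, 2 of the 10 largest rises were still called, Mdk and Hs3st3b1, and the log2 fold change was 1.55 for Sphk1 (adjusted p = 0.0741), 0.55 for Il33 (adjusted p = 0.485) and 0.83 for Il4ra (adjusted p = 0.134). Nptx2, a neuronal pentraxin, stood at 2.08 with that mouse and at 0.61 without it, and the pentraxin Ptx3, a fluid-phase immune receptor, at 1.83 and 1.22. That mouse also had the highest macrophage sum. Under the random block 2 of the 10 were called, Mdk and Socs3. With the compared libraries fitted alone 1 of them was called, and less the lean change 1, against 8 of the 10 largest falls in each of these fits.

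Mdk, the growth factor midkine, was the most regular of the large rises. It had 9.40, 12.5 and 28.9 CPM in 2-week regression mice, against 2.999, 4.84, 2.39, 5.34 and 3.45 CPM in obese mice, without overlap (1.93 ± 0.36, adjusted p = 0.000783). Hs3st3b1, which sulfates heparan chains, averaged 23.2 ± 12.2 CPM after 2 weeks and 7.98 ± 3.07 CPM in obese mice (1.54 ± 0.40, adjusted p = 0.0152). Thbs1, the matrix protein thrombospondin 1, had 115, 252 and 430.7 CPM after 2 weeks, against 94.5, 160.1, 58.2, 100.5 and 28.4 CPM in obese mice (1.60 ± 0.49, adjusted p = 0.0438), and lean mice at 2 weeks had 16.5 ± 10.7 CPM.

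Of 18 measured inflammatory cytokine genes 4 rose and 1 fell, against 2.04% of all genes rising and 3.65% falling. Socs3, which is induced by cytokines and dampens their receptors, had 54.9, 87.5 and 179.9 CPM in 2-week regression mice, against 30.9, 26.5, 82.9, 26.7 and 24.7 CPM in obese mice (1.498 ± 0.41, adjusted p = 0.0228). Obese replicate 3 was the highest obese mouse and lay inside the regression range. Nfkbia, the inhibitor of NF-kappaB, stood at 0.73 ± 0.22 and Osmr, the oncostatin M receptor, at 0.51 ± 0.16, beside Il33 above. The cytokine Lif fell, with 2.37, 4.51 and 6.55 CPM after 2 weeks, against 7.33, 7.12, 8.14, 9.40 and 8.98 CPM in obese mice, without overlap (-0.80 ± 0.22, adjusted p = 0.0234). The count of risers was 5 without obese replicate 3, 1 without regression replicate 5, and 0 without regression replicate 4. Over all genes 492 of 13983, 215 of 13883 and 262 of 13890 rose in these fits, in that order. The count of risers was also 0 when obese replicate 1, 2, 4 or 5 was left out, and 1 under the random block. In those fits 214 of 13981, 139 of 13985, 121 of 14001, 164 of 14014 and 103 of 13899 genes rose. Less the lean change 0 members rose and 1 fell, against 1.89% and 2.12% of all genes.

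Markers of the immune cells themselves gave few calls, beside 2.04% of all genes rising and 3.65% falling. None of 18 macrophage genes, 14 resident macrophage genes, 20 interferon genes and 10 MHC class II genes passed, with medians of 0.35, 0.29, 0.46 and 0.33 beside 0.02 over all genes. These medians include regression replicates 4 and 5, and medians without them are not given. Interferon genes had a mean log2 CPM of 5.94 and 6.04 in those 2 mice, 4.94 to 5.34 in the other regression mice and 4.60 to 5.61 in obese mice. MHC class II genes had 6.08 in replicate 4, 4.61 to 5.35 in the other regression mice and 4.44 to 5.07 in obese mice. Cd68, a lysosomal protein of macrophages, had 104, 112 and 279 CPM in 2-week regression mice, against 167, 54.0, 168, 109 and 80.6 CPM in obese mice (0.30 ± 0.40, adjusted p = 0.726). Of 17 lipid-associated macrophage genes 1 fell, and that one was Lpl, which fat cells express as well. Of 25 measured chemokines and receptors 1 rose, Ccl11, which attracts eosinophils (0.49 ± 0.14, adjusted p = 0.0315). The 5 tested of 11 neutrophil markers all had a positive log2 fold change, with a median of 1.29 and none called, and 1 was called without obese replicate 3. Their sum was 14.3 to 88.1 CPM in 2-week regression mice and 8.12 to 49.2 CPM in obese mice, highest in regression replicate 1 and, among the obese, in replicate 3. Its part in the cytokine genes was not tested. The B cell markers had a median of 1.52 with none of 10 called, and the sum was high in regression replicate 4 alone.

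Few matrix genes were called, and in both directions, beside 2.04% of all genes rising and 3.65% falling. Counts this small say little of the lists as wholes. The list medians were -0.20 for collagens and basement membrane genes, 0.18 for matricellular genes and 0.37 for matrix proteases and inhibitors. Of 22 collagens and basement membrane genes 2 fell, Col15a1, a basement membrane collagen, with 142, 199 and 304 CPM in 2-week regression mice, against 459.9, 590.1, 264, 585 and 553 CPM in obese mice (-1.24 ± 0.27, adjusted p = 0.00381), and Col4a2, a chain of type IV collagen (-0.67 ± 0.20, adjusted p = 0.0336). Sparc, which binds collagen, averaged 3437 ± 1162 CPM after 2 weeks and 5919.9 ± 1622 CPM in obese mice (-0.78 ± 0.19, adjusted p = 0.00876). Among 20 matrix proteases and inhibitors, the aggrecanase Adamts5 fell (-1.15 ± 0.24, adjusted p = 0.00255) and Timp4, an inhibitor of matrix proteases, rose (0.86 ± 0.25, adjusted p = 0.0311). Thbs1 and Thbs4 were the 2 risers among 23 matricellular genes, and Thbs4 stood at 15.3 CPM in regression replicate 5 and at 4.18 CPM or less in the other regression mice. Neither was called without regression replicate 5 or under the random block. Of the other matrix genes named here Col15a1 and Adamts5 were called under that block, and Col4a2, Sparc and Timp4 were not.

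Of 22 insulin signalling genes 3 rose and 1 fell, against 2.04% and 3.65% of all genes. Akt1, the kinase that carries the insulin signal, had 139, 155 and 187 CPM in 2-week regression mice, against 137, 113, 131, 120.1 and 105 CPM in obese mice, without overlap (0.41 ± 0.08, adjusted p = 0.00137). The other risers, Ptpn1, a phosphatase that turns the insulin receptor off, and Trib1, a pseudokinase, stood at 0.62 ± 0.18 and 0.72 ± 0.22, and neither passed without regression replicate 5. The gene that fell was Pdpk1, which activates Akt kinases (-0.25 ± 0.08, adjusted p = 0.0489), and it was lost without regression replicate 5 and without obese replicate 3. Under the random block Akt1 alone was called, and less the lean change no member was. Of 10 measured acute phase genes of fat 2 fell, Lbp, which binds bacterial lipopolysaccharide (56.7 ± 13.6 CPM after 2 weeks and 117 ± 41.8 CPM in obese mice, -1.05 ± 0.23, adjusted p = 0.00345), and the protease inhibitor Serpina3c (-0.73 ± 0.16, adjusted p = 0.00333), while the copper carrier ceruloplasmin, Cp, rose (0.68 ± 0.19, adjusted p = 0.0261). Of 15 genes of cell cycle inhibition and senescence 2 fell, Cdkn2b and Cdkn2c (-1.02 ± 0.27 and -0.93 ± 0.21), and none of 23 cell division genes was called. Ier3, an early response gene that limits cell death, was the 1 riser among 22 immediate early genes (1.07 ± 0.29, adjusted p = 0.0183).

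**Figure D4:**
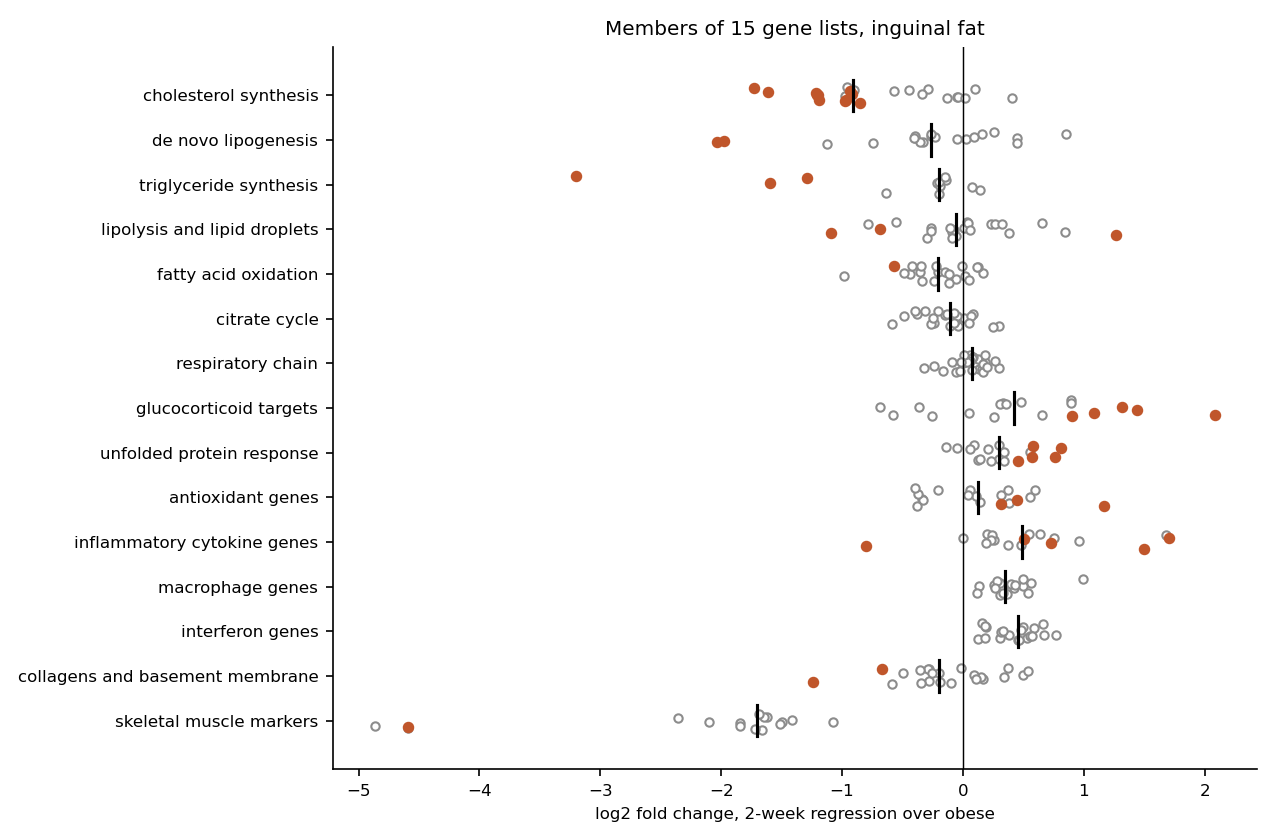
Log2 fold change of 2-week regression over obese mice for the measured members of 15 gene lists, 1 point per gene; filled points passed an adjusted p under 0.05 over all genes and black bars are list medians. Cholesterol synthesis has its median at -0.91 and 11 filled points on the left, the glucocorticoid and unfolded protein lists have 5 filled points each on the right, and the skeletal muscle markers lie between -4.86 and -1.07 with 1 filled.

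The 16 measured skeletal muscle markers had a median log2 fold change of -1.70, all of them negative, with 1 called, beside 3.65% of all genes falling. This was the oxygen carrier Mb, at 0.0695, 0.175 and 0.429 CPM in 2-week regression mice, against 8.496, 0.0712, 1.06, 0.0989 and 15.9 CPM in obese mice (-4.59 ± 1.44, adjusted p = 0.0485). The count of muscle markers called lower was 2 without obese replicate 3 and 0 without regression replicate 5. It was also 0 without both, under the random block and less the lean change. With the muscle and B cell marker levels as terms in the fit, 1121 genes were called, of which 768 were among the 792, and the cholesterol count was again 11.

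The same 2 weeks in lean mice gave a reference for age and sampling day. Lean mice at 2 weeks differed from lean mice at the obesity time in 640 of 13899 genes (4.60%), 375 higher (2.70%) and 265 lower (1.91%), but this count was 0 when the compared libraries were fitted alone (3277 genes at an unadjusted p under 0.05) and ranged from 4 to 2283 when single lean mice were left out. Of the 792 genes called after the diet change, 1 higher and 5 lower genes were also called in the same direction in lean mice, and 6 and 10 in the opposite one. When the lean change was subtracted, 556 genes were called (4.00%), 262 higher and 294 lower. This count was 914 without regression replicate 5 and 289 without obese replicate 4.

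The 5 largest negative values less the lean change were Pkp1 at -4.79 ± 0.88, Tph2 at -4.67 ± 0.99, Slc5a7 at -4.19 ± 0.91, Oxtr at -3.33 ± 0.67 and Ncan at -3.27 ± 0.70, which were large falls in the direct comparison too. The 5 largest positive values were Bhlhe40 at 2.44 ± 0.52 (adjusted p = 0.00467), Rgs16, which shortens G protein signals, at 2.41 ± 0.55 (adjusted p = 0.00905), Acsm3, a medium-chain acyl-CoA synthetase, at 2.32 ± 0.70 (adjusted p = 0.0478), Thbs1 at 2.30 ± 0.68 (adjusted p = 0.0451) and Dusp4, a phosphatase of MAP kinases, at 2.15 ± 0.44 (adjusted p = 0.00394). In each of these 5 the lean mice had a negative log2 fold change over the same 2 weeks, which passed the test for Rgs16 (-1.44 ± 0.38, adjusted p = 0.0292) and for none of the other 4. Bhlhe40 averaged 151 ± 90.3 CPM in 2-week regression mice and 61.2 ± 20.7 CPM in obese mice, while it averaged 174 ± 68.9 CPM in lean mice at 2 weeks and 381 ± 212 CPM at the obesity time. Dusp4 averaged 105 ± 37.1 CPM in 2-week regression mice and 40.3 ± 17.0 CPM in obese mice, while it averaged 155 ± 65.7 CPM in lean mice at 2 weeks and 262 ± 94.1 CPM at the obesity time. Rgs16 and Acsm3 did not pass in the direct comparison (adjusted p = 0.151 and 0.0874). Lep, at -2.01 ± 0.53 (adjusted p = 0.0227), Scd2, at -2.01 ± 0.51 (adjusted p = 0.0175), Hsd11b1, at 2.04 ± 0.39 (adjusted p = 0.00207), and Xbp1, at 0.90 ± 0.22 (adjusted p = 0.0142), also passed less the lean change. Socs3, at 0.57 ± 0.56 (adjusted p = 0.584), did not.

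Epididymal fat of the same 11 mice served to ask where the inguinal response differed. With mouse as a block, the difference between the depots gave 0 calls among 14749 genes in edgeR (0%), with 823 at an unadjusted p under 0.05, so no gene was shown to respond differently in the 2 depots. Lep had a log2 fold change of -1.65 ± 0.38 in inguinal fat beside -2.29 ± 0.29 in epididymal fat, and Hmgcs1 had -1.73 ± 0.28 beside -1.57 ± 0.26. Sphk1, which was called in inguinal fat, stood at 0.43 ± 0.55 in epididymal fat (adjusted p = 0.746), and Mt2 at 0.32 ± 0.33 (adjusted p = 0.647). The difference between the depots in these 2 genes, 1.53 ± 0.60 and 1.86 ± 0.47, did not pass (adjusted p = 0.761 and 0.456).

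Levels at the later times show where the 2-week values stood on the way. The regression groups at 6 and 12 weeks had 6 mice each. Lep averaged 3566 ± 2363 CPM in obese mice, 1136 ± 337 CPM at 2 weeks, 1032 ± 395.6 CPM at 6 weeks and 1373 ± 473.5 CPM at 12 weeks of regression, and the 3 regression means lay within 1 SD of each other. Scd2 averaged 884 ± 451.6 CPM in obese mice, 216 ± 66.3 CPM at 2 weeks, 1205 ± 478.6 CPM at 6 weeks and 2072 ± 1151 CPM at 12 weeks, and the 2-week mean was the lowest of the 4 times. Dgat2 averaged 3050.0 ± 1201, 1009 ± 535, 2427 ± 660.5 and 2869.7 ± 1310.5 CPM at the same times, again lowest at 2 weeks. Hsd11b1 averaged 77.1 ± 25.1 CPM in obese mice, 209 ± 100.1 CPM at 2 weeks, 435.2 ± 139 CPM at 6 weeks and 408.1 ± 143 CPM at 12 weeks. Socs3 averaged 38.3 ± 25.0, 108 ± 56.4, 26.4 ± 7.77 and 21.7 ± 10.2 CPM, and was highest at 2 weeks. As given above, the Socs3 change over the first 2 weeks did not pass less the lean change. Differences between these later times were not tested here.

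**Figure D5:**
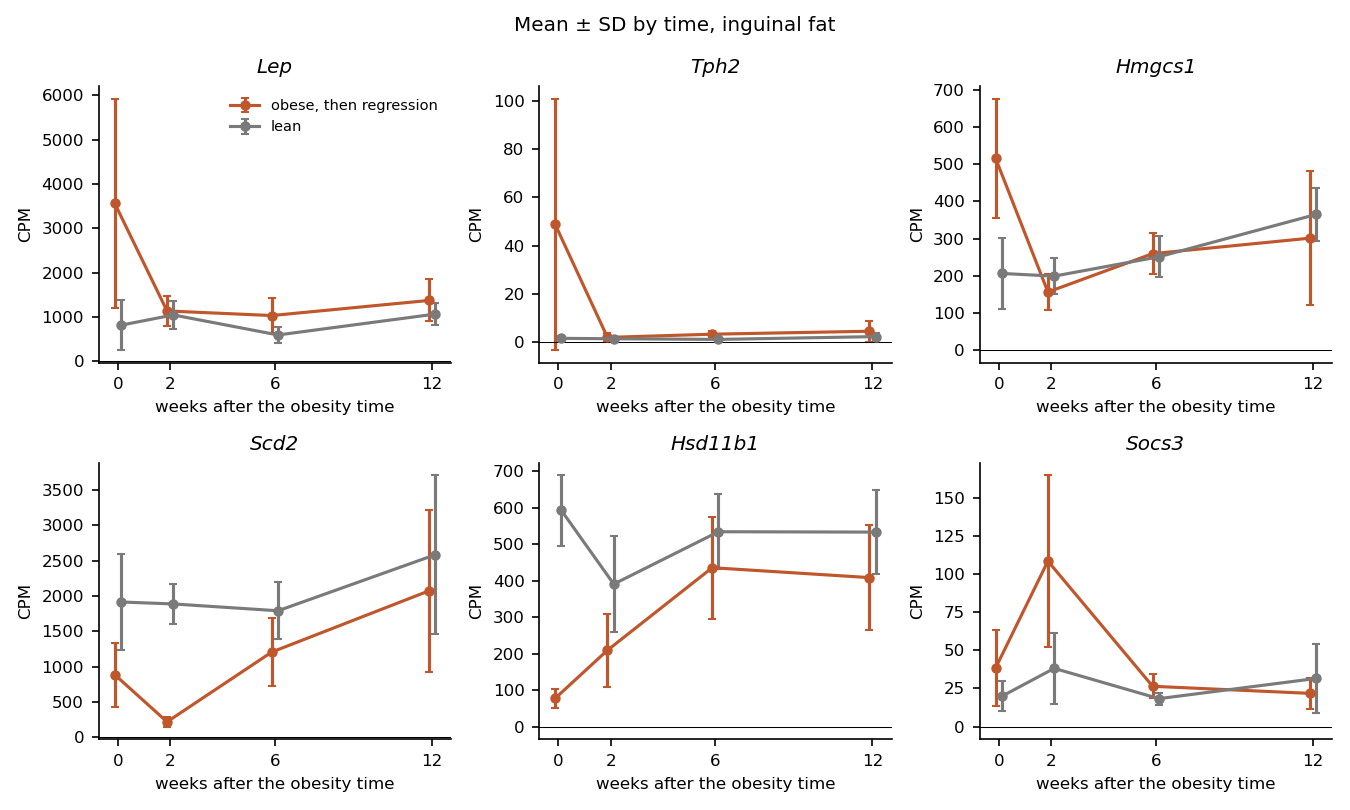
Mean CPM ± SD of 6 genes at 0, 2, 6 and 12 weeks after the obesity time, for obese mice at 0 weeks followed by regression mice (coloured) and for lean mice (grey); n = 6 mice a point and 5 for obese mice. Lep and Tph2 are near the lean level from 2 weeks on, Scd2 is lowest and Socs3 highest at 2 weeks, and Hsd11b1 is between its obese and lean levels at 2 weeks.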

How the data were processed

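Each library has raw whole-number counts by gene symbol, as the authors deposited them, with no scaling applied. STAR 2.4.1c, mm10, R 4.2.2 and DESeq2 1.38.3 are listed in the submitters' processing notes. How reads were assigned to genes, and whether by strand, is not stated there, so reads of near-identical or overlapping genes could not be told apart. From the counts, edgeR 4.0.16 in R 4.3.3 (TMM, default count filter, quasi-likelihood F-test, two-sided, Benjamini-Hochberg over all genes tested, call at an adjusted p under 0.05) was fitted over all 47 inguinal libraries with 8 group means. Unless another tool is named, each adjusted p comes from this test, and values after ± are standard errors beside a log2 fold change and SDs between mice beside a CPM. The lean change and the change less the lean change are contrasts of the same fit. The depot difference was fitted over 94 libraries with mouse as a block. No replicate pair agreed within sampling noise (lowest chi-square per degree of freedom 13.6), so each library counted as 1 replicate. Random blocks used limma 3.58.1 (voom; estimated correlation 0.12), and DESeq2 1.42.0 was an alternative. On simulated counts for this comparison (13798 genes) 80 of 100 genes changed 2-fold and 97 of 100 changed 4-fold were recovered, and 6 of 183 calls were false. The simulated libraries were independent, with no mouse set apart and no likeness between neighbouring mouse numbers. These rates may therefore be too favourable for the real data.

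Genes were named by rule: the 10 largest called changes in each direction with a mean of at least 5 CPM, the 3 leading called members of each of 56 lists in each direction, and a set of fat genes. Other genes were named after their values were seen. The members and lists were chosen with earlier results of these data known. Library totals limit precision for genes of few counts. Positions are from GENCODE M21 (mm10). Some genes that the rule takes are not reported here.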

Additional observations from a re-analysis of the deposited data

Results flagged for a closer look

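Among 226 groups examined (the 2-week regression and the obese mice of each gene named here), 21 held a mouse far from the rest of its group by Dixon's criterion; chance flags about 5% of groups. Obese replicate 3 was the one set apart in 9 of them. It was low in Hsd17b7 (9.21 CPM), Insig1 (250 CPM), Lss (21.2 CPM), Sqle (7.97 CPM), Ncan (3.81 CPM), Pgd (162 CPM) and Tpi1 (247 CPM), and high in Socs3 (82.9 CPM) and Ccl11 (94.1 CPM). In Hsd17b7 the other obese mice had 24.1 to 28.5 CPM.

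Regression replicate 5 was set apart in 8 of them. It was low in Adrb1 (14.4 CPM), Krt79 (0.943 CPM), Mgll (939 CPM), Nkd1 (6.96 CPM), Sc5d (47 CPM) and Acadm (128 CPM), and high in Cd68 (279 CPM) and Pdia4 (242 CPM). Regression replicate 6 was high in Mdk (28.9 CPM) and Ndrg1 (346 CPM), regression replicate 2 was low in Pkp1 (0.154 CPM), and obese replicate 5 was high in Hsd11b1 (121 CPM).

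The other flagged values are changes in diet-switched mice that differed from the change in lean mice over the same 2 weeks, tested in the edgeR fit as a difference of differences. The 5 positive ones on the log2 scale were Bhlhe40 at 2.44, Rgs16 at 2.41, Acsm3 at 2.32, Thbs1 at 2.3 and Dusp4 at 2.15. The 5 negative ones were Pkp1 at -4.79, Tph2 at -4.67, Slc5a7 at -4.19, Oxtr at -3.33 and Ncan at -3.27. Their adjusted p-values ran from 0.00171 for Pkp1 to 0.0478 for Acsm3.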

How the results depend on the processing

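Counts of calls are given as percents of the genes tested in each fit. The direct comparison called 5.70% (792 genes), and between 3.48% (649 of the 18651 genes tested with no count filter) and 8.07% (1121, with the muscle and B cell signals as terms) with these 2 settings, at least 1 CPM in 5 libraries, DESeq2 size factors, the mouse series as a term or DESeq2 (1099 genes). It called 2.49% when the 11 libraries were fitted alone, 2.39% with neighbouring mouse numbers as a random block, 3.37% in replicates 4 to 6 alone and 0.918% in replicates 1 to 3 alone. Leaving out 1 mouse gave 2.68% to 8.65%. Less the lean change, 4.00% (556 genes) became 2.14% with the compared libraries alone, 0.396% in replicates 4 to 6 alone, 1.09% with the random block, 6.34% with DESeq2 and 2.06% to 6.58% with 1 mouse left out. Its counts furthest below came without obese replicate 4 (289 genes), regression replicate 1 (340), lean replicate 4 of the obesity time (352), regression replicate 3 (353) and lean replicate 1 of 2 weeks (370). The lean change of 4.60% (640 genes) became 1.77% with no filter, 1.04% with the muscle and B cell terms, 9.98% with DESeq2 and 0.0288% to 16.4% with 1 mouse left out. It became 0 with the compared libraries alone, with the random block and in replicates 4 to 6 alone (3277, 2517 and 1514 genes at an unadjusted p under 0.05), and 0.0506% in replicates 1 to 3 alone. The exclusions of obese replicate 3 with regression replicate 5, or with replicates 4 and 5, were chosen after seeing the data: they gave 6.81% and 7.001% directly and 7.30% and 7.60% less the lean change. The depot difference gave 0 calls in every setting run (3.19% to 5.69% of genes at an unadjusted p under 0.05), and the fits without single mice were not run for it. Replicate numbers gave no pairing, since same-numbered mice correlated between -0.32 and 0.30; with the replicate block 812 genes were called directly, 698 less the lean change and 542 in lean mice. With TMM 35.9% of calls were higher, with DESeq2 size factors 29.6%. Signs turned for genes that had not passed. In replicates 1 to 3 alone Fasn stood at 1.08, Elovl6 at 1.07, Ucp1 at 2.02, Plin1 at 0.12 and Cd68 at -0.28, in replicates 4 to 6 alone Fdft1 at -0.52, and with the random block Ucp1 at 0.45. With 1 mouse left out Fasn ranged between -0.75 (regression replicate 3) and 0.55 (obese replicate 5), Elovl6 between -0.66 and 0.58 (the same mice), Ucp1 between -0.84 (regression replicate 6) and 1.77 (obese replicate 5), and Cd68 between -0.0011 (regression replicate 5) and 0.48 (obese replicate 3). Of the called genes named here 1 turned, Il33, at -0.26 in replicates 1 to 3 alone. The cause of these shifts was not tested. Genes below about 1 CPM rest on few reads.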

Other observations

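Other genes of the lists changed singly or in pairs. Slc2a13, a carrier of myo-inositol, averaged 23.0 ± 5.44 CPM in 2-week regression mice and 52.5 ± 14.5 CPM in obese mice (-1.19 ± 0.20, adjusted p = 0.000282). Zfp423, a regulator that keeps fat cells white, averaged 76.4 ± 12.9 CPM after 2 weeks and 113 ± 26.5 CPM in obese mice (-0.56 ± 0.14, adjusted p = 0.0114). S100b, a calcium-binding protein of Schwann cells and fat cells, stood at -0.94 ± 0.22, Mylk, the myosin kinase of smooth muscle, at -0.75 ± 0.17, Sema3c, a guidance factor of fat progenitors, at -0.57 ± 0.15, and Psat1, an enzyme of serine synthesis, at -0.45 ± 0.12. Acadm, a dehydrogenase of fatty acid oxidation, stood at -0.57 ± 0.17. Ndrg1, a hypoxia and growth arrest gene (0.57 ± 0.14), and Hsf1, the heat shock factor (0.41 ± 0.10), were higher after 2 weeks. Under the random block Slc2a13, Zfp423, S100b and Hsf1 were called and Mylk, Sema3c, Psat1, Acadm and Ndrg1 were not, and Psat1 and Acadm were also lost without regression replicate 5.

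Genes of the nucleolus, where ribosomes are built, were looked at after their values were seen, so their count has no test. Of 24 tested genes whose symbol starts with Nop, Rrp or Utp and a number, 5 were higher and 0 lower, against 2.04% and 3.65% of all genes, 21 had a positive log2 fold change, and the median was 0.28. Nop56 averaged 30.0 ± 4.90 CPM in 2-week regression mice and 18.3 ± 1.44 CPM in obese mice, with a log2 fold change of 0.72 ± 0.16 (adjusted p = 0.00614), and Nop58 averaged 12.98 ± 3.33 CPM after 2 weeks and 7.36 ± 1.06 CPM in obese mice, with 0.82 ± 0.19 (adjusted p = 0.00664). The other called members were Nop2, Rrp15 and Utp11l. The count was 5 without obese replicate 3, 5 without regression replicate 5 and 4 without both. Over all genes 492 of 13983, 215 of 13883 and 351 of 13985 rose in these fits, in that order.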
